A study of Homo sapiens with 6 samples.

Results

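Axon guidance ligands and receptors were followed in human forebrain organoids exposed to the amyloid-β peptide Aβ42. The group was set by gene symbol and holds the semaphorins of classes 3 to 7, the plexins and neuropilins, the Eph receptors and ephrins, the Slits and Robos, and the netrins and netrin-Gs with the netrin receptors DCC and UNC5A to UNC5D. It has 71 members among the 18056 genes listed, and 67 of them had enough counts to be tested. A dorsal forebrain protocol was applied to DYR0100, a line of induced pluripotent stem cells whose genotype is recorded as wild type. In the vehicle group, 3 libraries came from organoids that received vehicle. In the Aβ42 group, 3 libraries came from organoids that received 5 µM Aβ42 for 6 days. Both groups share the line, the protocol and a single labelled batch, so all values describe 1 genetic background. The labels call the 3 libraries of a group independent biological replicates, and the age of the organoids is not given.

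Growing axons and migrating neurons are steered by secreted and membrane-bound cues that attract or repel them through receptors on their surface. Semaphorins act through plexins, with neuropilins as co-receptors for most of the secreted class 3 forms. Ephrins bind Eph receptor tyrosine kinases at cell contacts and can signal in both directions. Slits repel through Robos, and netrins attract through DCC or repel through UNC5 receptors. In the developing cortex these families position migrating neurons, guide callosal and corticofugal axons, and shape dendrites and synapses.

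Each library held between 16465390 and 16742958 estimated counts, and 86.9% to 87.5% of the values in a library were whole numbers. Markers of the labelled tissue were present in every library, with 8311 to 8859 TPM (a transcript share scaled for gene length and library size) summed over 8 radial glia genes and 1358 to 1497 TPM over 7 genes of dorsal forebrain excitatory neurons. Interneuron markers summed to 9.63 to 27.4 TPM, and C1QA and TREM2, which mark microglia, had 0 counts in all 6 libraries, where a count of 0 allows up to 3 counts or 0.179 to 0.182 CPM (counts scaled to library size). The other microglia markers listed were few but present, with 1 count of AIF1, 12 of CX3CR1, 13 of P2RY12 and 32 of CSF1R over all 6 libraries together. Choroid plexus markers set 2 libraries apart, with 7556 TPM in vehicle replicate 2 and 6654 TPM in Aβ42 replicate 2 against 2830 to 3956 TPM in the other 4. These are bulk libraries, so fewer cells of a type and less RNA per cell cannot be told apart in any result.

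In the vehicle organoids the guidance genes were expressed at very unequal levels. Of the 71 members, 63 reached 1 TPM in all 6 libraries, and together the members took 0.278% to 0.298% of the TPM in vehicle and 0.254% to 0.269% with Aβ42. The highest member was EFNB2, a transmembrane ephrin, at 284 ± 13.1 TPM in vehicle (mean ± SD, n = 3). PLXNA4 followed at 177 ± 23.8 TPM and SEMA3C at 174 ± 21.6 TPM, and the spreads of these 2 overlapped. PLXNA2, ROBO1, EPHA4, EPHA5 and EPHA3 came next, at 121 to 148 TPM, and the vehicle values of neighbours in that order overlapped except between EPHA4 and EPHA5. At the other end, SEMA3G, EPHA1, NTN3 and ROBO4 had too few counts to be tested, with 14 counts as the highest value of any of them in any library. EPHA1 had 0 counts in 3 libraries and at most 2 in the others. Members of 1 family were uneven too, since SLIT1 stood at 91.1 ± 3.95 TPM, SLIT2 at 7.07 ± 2.37 TPM and SLIT3 at 0.533 ± 0.0929 TPM in vehicle.

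**Figure D1:**
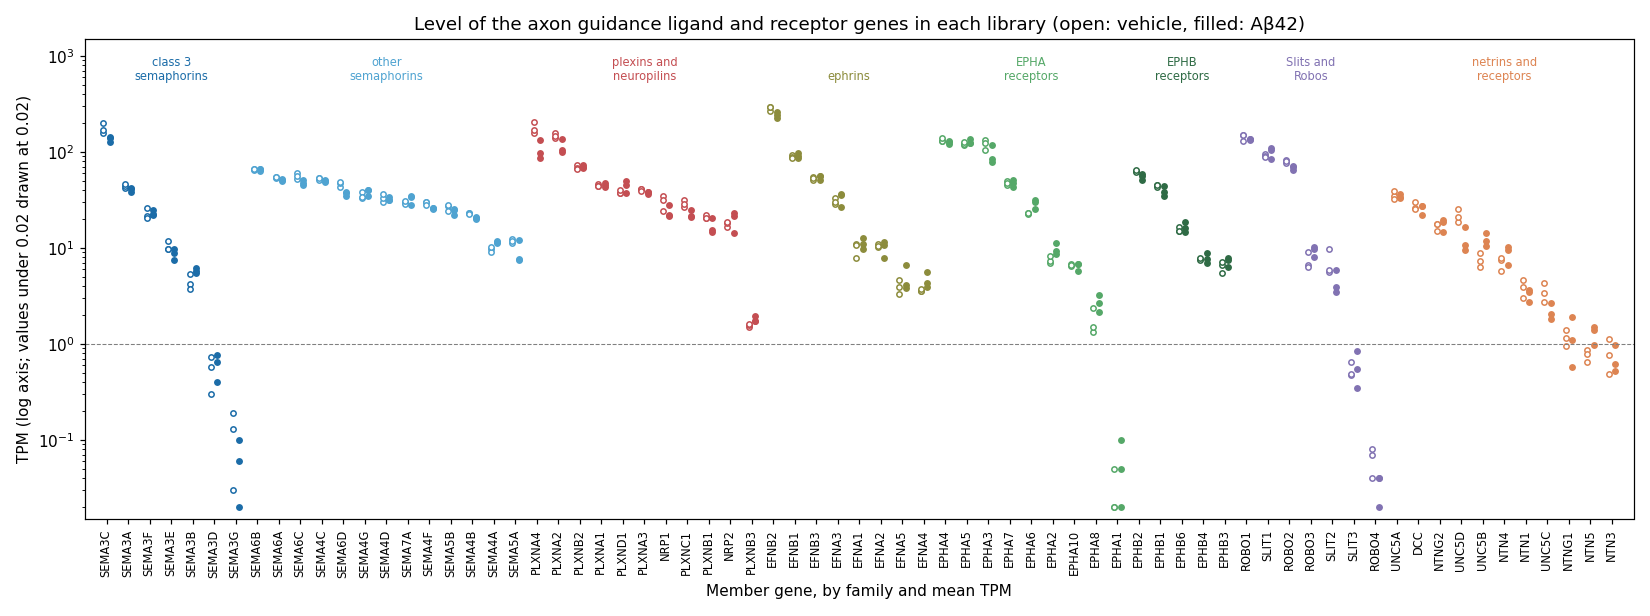
Level of each of the 71 members in TPM on a log axis, by family and ordered by mean, with open points for the 3 vehicle libraries and filled points for the 3 Aβ42 libraries. EFNB2 is the highest member, 8 members lie below 1 TPM (dashed line) in at least 1 library, and most members lie at like heights in both groups.

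The main comparison asks which members differed between organoids with and without Aβ42. With the block described next, the receptors PLXNA4, PLXNA2, PLXNC1, UNC5C and UNC5D and the ligands SEMA3C and SEMA6D were lower with Aβ42, while the receptors UNC5B and EPHA2 were higher. In edgeR's quasi-likelihood fit without a block, 0 members had an adjusted p-value under 0.05, and so had 0 of the 13842 genes tested (0% called). Before adjustment, p-values under 0.05 were reached by 12 lower and 6 higher members, which is 17.9% and 8.96% of the 67 tested (26.9% in all), against 11.5% and 12.4% of all genes tested (23.9% in all). The libraries numbered 2 deviated together from their group means (correlation of 0.411 across genes). The values for numbers 1 and 3 were 0.198 and 0.133. They were 0.208 for vehicle replicate 3 with Aβ42 replicate 1 and 0.157 for vehicle replicate 1 with Aβ42 replicate 3, so numbers 1 and 3 were not told apart by this check. Deviations from a group mean cancel over its libraries, so these values follow in part from number 2 and are no separate ground for pairing numbers 1 and 3. With the replicate number as a block, 15 members passed as lower and 4 as higher. These are 22.4% and 5.97% of the tested members, against 7.05% lower and 7.12% higher among all genes (28.4% against 14.2% in either direction). The members lower with Aβ42 were thus a larger share than in the whole table, and the members higher were near the share of all genes.

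The direction was mixed over the whole group. The median log2 fold change (Aβ42 over vehicle) of the 67 tested members was 0.01, with 35 higher and 32 lower, against 0.0032 over all genes tested. The median size of the change, in either direction, was 0.18 in members and 0.12 in all genes. In 14 members every Aβ42 value lay below every vehicle value in CPM scaled by the TMM method, and in 7 every Aβ42 value lay above. That is 31.3% of the tested members, against 27% of all genes (13.4% lower and 13.6% higher), so the share without overlap was near the background, and the excess was on the lower side (20.9%). Leaving out Aβ42 replicate 2 gave 15 members lower and 11 higher at an adjusted p-value under 0.05, against 11.7% and 11.6% of all genes (38.8% against 23.3% in all), and 17 of these 26 were also among the 19 of the blocked fit. Under an adjusted p-value of 0.1 without the block, 7 members were lower and 2 higher, against 3.37% and 3.58% of all genes (6.95% in all). DESeq2, which gave an adjusted p-value for 58 members, called 8 lower and 1 higher. Of the 11426 genes to which it gave such a value, it called 3.72% lower and 3.4% higher (7.12% in all). With limma's sample quality weights 17 members were lower and 4 higher, against 9% and 8.75% of all genes (17.8% in all). In limma without these weights 0 members and 0% of all genes passed. The same held in edgeR without the block when any single library other than Aβ42 replicate 2 was left out. The blocked counts moved with the pairs of libraries left out, each time in a fit of 4 libraries: without both libraries numbered 1 they were 4 lower and 1 higher (0.824% of all genes called), without those numbered 2 they were 15 and 8 (15.1%), and without those numbered 3 they were 8 and 1 (3.58%).

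**Figure D2:**
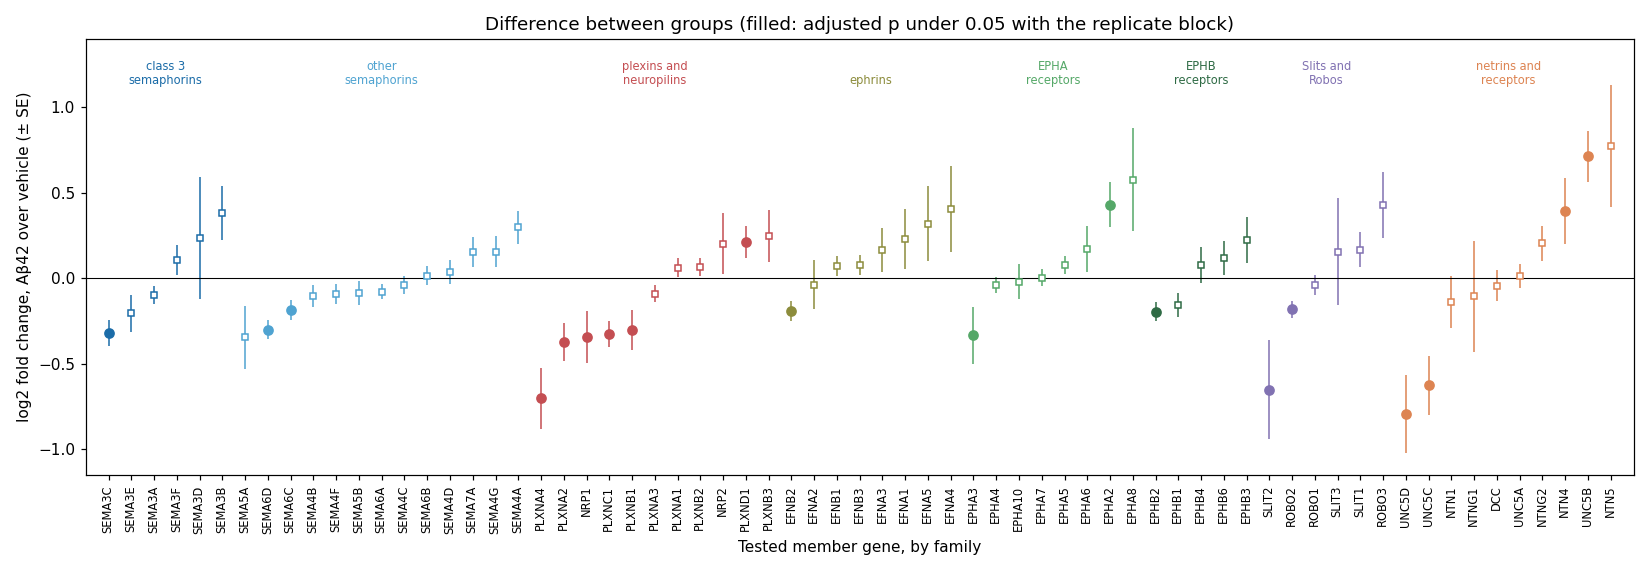
Log2 fold change of each of the 67 tested members (points) with its standard error (bars), by family, from the fit without a block. Filled circles mark the 19 members with an adjusted p-value under 0.05 in the fit with the replicate block, and they run from -0.79 for UNC5D to 0.71 for UNC5B.

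The sequence before the transcription start is shown for 4 members with small blocked p-values and a single start in the RefSeq promoter table (GRCh38.p14), 3 lower and 1 higher, since these carry the differences described next. Each window holds the 250 bases before that start, 5′ to 3′ on the gene's strand. Capitals mark matches on either strand to 3 motifs: CAGATG, an E-box of the kind that neurogenic factors bind, GGGCGG, the GC box, and ACGTG, the core that hypoxia-inducible factors bind. The windows are PLXNA4 at chr7:132576471-132576720 on the minus strand, SLIT2 at chr4:20251655-20251904 on the plus strand, PLXNA2 at chr1:208244385-208244634 and EPHA2 at chr1:16156070-16156319, both on the minus strand.
PLXNA4: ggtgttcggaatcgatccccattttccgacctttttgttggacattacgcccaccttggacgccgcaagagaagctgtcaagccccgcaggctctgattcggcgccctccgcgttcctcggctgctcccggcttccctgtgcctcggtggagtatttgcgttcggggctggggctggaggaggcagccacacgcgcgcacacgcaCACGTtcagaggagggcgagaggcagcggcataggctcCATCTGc
SLIT2: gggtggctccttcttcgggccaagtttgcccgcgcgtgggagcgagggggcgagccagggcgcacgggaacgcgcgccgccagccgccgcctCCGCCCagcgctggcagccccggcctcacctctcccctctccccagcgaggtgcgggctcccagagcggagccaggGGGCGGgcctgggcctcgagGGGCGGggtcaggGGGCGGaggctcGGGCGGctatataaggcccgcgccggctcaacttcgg
PLXNA2: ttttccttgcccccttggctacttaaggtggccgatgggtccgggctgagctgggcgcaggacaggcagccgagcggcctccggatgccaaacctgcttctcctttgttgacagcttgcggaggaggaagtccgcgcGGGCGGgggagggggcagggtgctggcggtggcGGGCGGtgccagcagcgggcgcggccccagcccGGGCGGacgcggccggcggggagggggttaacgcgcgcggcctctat
EPHA2: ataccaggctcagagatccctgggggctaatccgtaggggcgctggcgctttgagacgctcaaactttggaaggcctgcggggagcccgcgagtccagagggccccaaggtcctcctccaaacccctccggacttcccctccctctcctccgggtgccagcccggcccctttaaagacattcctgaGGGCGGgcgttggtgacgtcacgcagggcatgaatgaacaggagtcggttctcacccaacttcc

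The PLXNA4 window held 1 match to CAGATG and 1 to ACGTG and none to GGGCGG. The other windows held GGGCGG alone, 5 times in SLIT2, 3 times in PLXNA2 and 1 time in EPHA2. Of the 35116 windows in the table, 12.2% held CAGATG, 42.6% GGGCGG and 18.5% ACGTG, and among the 94 windows of the 60 members that matched by gene ID the shares were 8.51%, 70.2% and 17.0%. The listed PLXNA4 start lies inside the outer bounds of its gene. The bases just after the listed start were found in 3 annotated transcripts of PLXNA4 and 1 of EPHA2. For SLIT2 and PLXNA2 they were found in 0, so those starts were not matched to a transcript. A match is a run of letters and no measured site, and several windows of a gene can overlap.

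Among the class 3 semaphorins, the secreted cues, SEMA3C was lower with Aβ42 and the rest did not pass. SEMA3C, made by guidepost neurons of the developing corpus callosum, stood at 155, 198 and 169.9 TPM in vehicle replicates 1 to 3 and at 138, 143 and 125 TPM in Aβ42 replicates 1 to 3. All 3 Aβ42 values lay below the lowest vehicle value. Its log2 fold change was -0.32 ± 0.08, with an adjusted p-value of 0.0734 without the block and 0.00181 with it. In what follows, a log2 fold change has its standard error, and a pair of adjusted p-values gives edgeR's test without the block first and with it second. SEMA3A, the prototype repellent of the class, was at 42.2, 43.9 and 46.5 TPM and 41.7, 40.9 and 37.8 TPM. These values did not overlap, but the difference was small (-0.10 ± 0.05) and did not pass in either fit (adjusted p-values 0.287 and 0.273). SEMA3B, at 5.38, 4.22 and 3.74 TPM in vehicle and 5.48, 5.71 and 6.09 TPM with Aβ42, was on the other side, with a log2 fold change of 0.38 ± 0.16 (adjusted p-values 0.177 and 0.104). The family median over 6 tested members was 0.0041, with 3 members on each side of 0.

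The 13 other semaphorins, anchored in the membrane by a transmembrane segment or a lipid, had a median log2 fold change of -0.08, with 8 lower and 5 higher. SEMA6D, a transmembrane ligand that binds plexins of class A, had the smallest p-value of all members. It measured 42.6, 47.6 and 48.3 TPM in vehicle and 38.3, 37.04 and 34.5 TPM with Aβ42, so that every Aβ42 library lay below every vehicle library. The log2 fold change was -0.30 ± 0.05, and the adjusted p-value of 0.0684 without the block was the smallest over all genes, a value that 98 genes shared after the adjustment. With the block it was 0.00299, and leaving out single libraries moved the log2 fold change from -0.34 to -0.27. SEMA6C, of the same subclass, went the same way at 52.1, 60.8 and 55.9 TPM and 46.8, 50.2 and 45.6 TPM, a log2 fold change of -0.19 ± 0.06 (adjusted p-values 0.113 without and 0.0319 with the block). The groups of SEMA6C did not overlap either.

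The remaining class 6 ligands did not pass in either fit. SEMA6A measured 52.96, 54.5 and 54.1 TPM in vehicle and 50.5, 52.1 and 49.2 TPM with Aβ42, without overlap (log2 fold change -0.08 ± 0.04, adjusted p-values 0.296 and 0.325). SEMA6B, the most abundant of the 13, measured 64.7, 66.6 and 66.1 TPM and 66.9, 62.8 and 66.3 TPM, with overlapping groups and a log2 fold change of 0.02 ± 0.05 that turned to -0.01 on the log2(TPM + 1) scale. On that scale the median over all genes tested was -0.04. SEMA4A, a ligand also studied in immune cells, had no overlap in the other direction, with a log2 fold change of 0.30 ± 0.10 and adjusted p-values of 0.114 and 0.0635. SEMA5A was lower in Aβ42 replicates 1 and 3 only: it was at 12.2, 11.3 and 11.7 TPM in vehicle and at 7.58, 11.9 and 7.42 TPM with Aβ42, where replicate 2 sat among the vehicle values. Without that library its log2 fold change was -0.60 (adjusted p-value 0.000241), against -0.35 ± 0.18 (0.303) with it.

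The semaphorin receptors held the largest differences at high levels of expression. PLXNA4 (Entrez gene ID 91584, at chr7:132123340-132648688 in GRCh38.p14), a class A plexin that carries semaphorin signals in cortical neurons, stood at 158, 204 and 170.1 TPM in vehicle and 86.03, 133 and 97.9 TPM with Aβ42. The Aβ42 libraries were all below the vehicle libraries, replicate 2 was the highest of each group, and the log2 fold change was -0.70 ± 0.18, a level 38.5% lower. Its adjusted p-value was 0.107 without the block and 2.49e-06 with it, and it passed in 9 of 22 alternatives. PLXNA2, which belongs to the same class, measured 140.5, 157 and 147 TPM and 105, 136 and 100.05 TPM, again with replicate 2 highest in each group and no overlap (-0.37 ± 0.11, adjusted p-values 0.116 and 0.00146). The other class A plexins did not pass, since PLXNA1 was at 44.5 ± 1.55 TPM in vehicle and 45.1 ± 2.20 TPM with Aβ42 (0.06 ± 0.05 on the log2 scale, adjusted p-value 0.511), and PLXNA3 had a log2 fold change of -0.09 ± 0.05 (0.298).

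PLXNC1, the receptor of SEMA7A, measured 26.6, 31.6 and 28.6 TPM in vehicle and 21.7, 24.8 and 20.7 TPM with Aβ42. Its groups did not overlap, and the log2 fold change was -0.33 ± 0.07 (adjusted p-values 0.0734 without and 0.00137 with the block), although some of its estimated counts were fractional, and reads shared with another feature could not be separated here. SEMA7A itself had a log2 fold change of 0.15 ± 0.09 and did not pass (0.316 and 0.174). PLXNB1, a receptor of SEMA4D, did not pass without the block (0.164) and passed with it (0.0117), at a log2 fold change of -0.30 ± 0.12. Its value in Aβ42 replicate 2, 20.4 TPM, lay among the vehicle values of 20.6, 21.9 and 20.3 TPM, and without that library and without a block it was at -0.47 (0.000381). NRP1, the co-receptor for SEMA3A that also binds VEGF, stood at 24.1, 34.96 and 31.3 TPM and 21.4, 27.7 and 21.98 TPM, with overlap between the groups (-0.34 ± 0.15, adjusted p-values 0.231 and 0.0033). Of its vehicle libraries, replicate 1 was the lowest and lay below Aβ42 replicate 2.

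PLXND1, the receptor of SEMA3E, was the single plexin that passed as higher with the block, with a log2 fold change of 0.21 ± 0.09. PLXNB3, PLXNB2 and PLXNA1 were also on the higher side and did not pass, at 0.25 ± 0.15, 0.06 ± 0.05 and 0.06 ± 0.05. PLXND1 measured 37.1, 37.4 and 40.4 TPM in vehicle and 44.7, 37.6 and 49.5 TPM with Aβ42, where replicate 2 overlapped the vehicle range. It passed narrowly with the block (0.0452) and no longer with the block and an offset for gene length and GC content (0.0872), an alternative in which 18 of the 19 members of the blocked fit passed. It was at a log2 fold change of 0.11 when Aβ42 replicate 3 was left out. Summed over the 9 plexins, the level was 545 to 604 TPM in the vehicle libraries and 427 to 506 TPM in the Aβ42 libraries, a mean 19.7% lower with no overlap. The 2 neuropilins summed to 47.7 ± 6.49 TPM and 43.3 ± 1.19 TPM, with overlap.

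**Figure D3:**
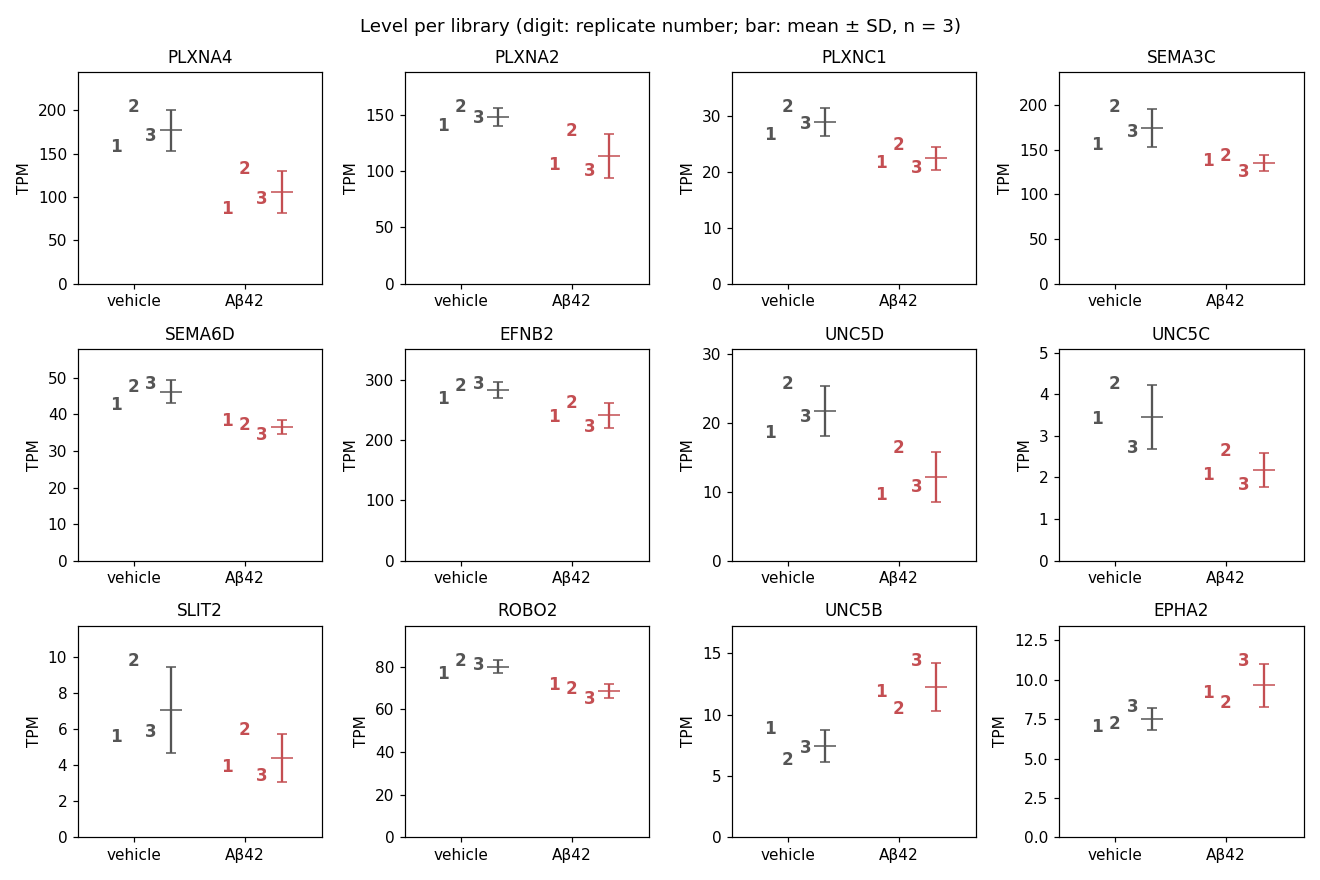
TPM of 12 members in each library, with digits for the replicate number and bars for the mean ± SD of 3 libraries, on axes that start at 0. The groups do not overlap in these panels except for SLIT2, and in PLXNA4, PLXNA2 and UNC5D Aβ42 replicate 2 is the Aβ42 library nearest to vehicle.

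Among ephrins and their receptors, 4 members passed with the block, EFNB2, EPHA3 and EPHB2 as lower and EPHA2 as higher. EFNB2, the most abundant member and a ligand of the B-class Eph receptors and EPHA4, measured 269, 289 and 293 TPM in vehicle and 239, 262 and 222 TPM with Aβ42. Every Aβ42 library lay below every vehicle library, by a log2 fold change of -0.19 ± 0.06 (adjusted p-values 0.0974 without and 0.0227 with the block). EFNB1, another transmembrane ephrin, was at 93.2, 87.7 and 85.7 TPM and 85.4, 96.1 and 90.5 TPM with overlap (0.07 ± 0.06, 0.459 and 0.448). EFNA4, a lipid-anchored ephrin of low level, was at 3.58, 3.55 and 3.70 TPM and 3.86, 4.25 and 5.66 TPM, higher in each Aβ42 library but with a wide error (0.41 ± 0.25, 0.347 and 0.324). The 8 ephrins had a median log2 fold change of 0.12, with 6 higher, while their summed level was lower, at 484 ± 7.40 TPM in vehicle and 449 ± 11.7 TPM with Aβ42, and EFNB2 alone made up most of that sum in each library.

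Among the 9 EPHA receptors, EPHA3 was lower and EPHA2 higher in the blocked fit. EPHA3, a receptor of A-class ephrins, stood at 106, 133 and 124 TPM in vehicle and 77.9, 119 and 84.7 TPM with Aβ42. Aβ42 replicate 2 lay within the vehicle range, and the adjusted p-value was 0.287 without the block, 0.003 with it and 0.00558 without that library, at log2 fold changes of -0.33 ± 0.17 and -0.53 with and without it. Without Aβ42 replicate 1 it was -0.22. EPHA2, better known from epithelia, was low but higher in every Aβ42 library, at 6.98, 7.22 and 8.29 TPM and 9.17, 8.54 and 11.2 TPM (0.43 ± 0.13, adjusted p-values 0.0998 and 0.0103). EPHA4, the Eph receptor with the widest range of ephrin ligands, was at 130.3, 129 and 138 TPM and 127, 129 and 119.99 TPM, and EPHA5 at 117, 121 and 127 TPM and 136, 124 and 124 TPM. Neither passed without or with the block, with log2 fold changes of -0.04 ± 0.05 (adjusted p-values 0.652 and 0.668) and 0.08 ± 0.05 (0.366 and 0.343). With the block and offsets for length and GC content, EPHA5 passed as higher, at 0.13 (0.0371). The EPHA4 groups overlapped in CPM and not in TPM, and those of EPHA5 overlapped in both. EPHA8 had a large but imprecise log2 fold change of 0.58 ± 0.30 at a low level, 2.38, 1.33 and 1.49 TPM in vehicle and 2.66, 3.19 and 2.13 TPM with Aβ42 (0.268 and 0.138).

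Of the EPHB receptors, which bind B-class ephrins in axon pathfinding and at synapses, EPHB2 was lower. Its values were 62.5, 61.4 and 64.4 TPM in vehicle and 56.3, 58.1 and 50.4 TPM with Aβ42, without overlap, for a log2 fold change of -0.19 ± 0.06 (adjusted p-values 0.0947 and 0.0268). EPHB1 was at 45.6, 43.4 and 45.4 TPM and 38.2, 43.9 and 34.96 TPM, with replicate 2 among the vehicle values. It did not pass with the block (0.132) and passed without Aβ42 replicate 2 (0.01, log2 fold change -0.24), against -0.16 ± 0.07 with all libraries. Summed over the 14 Eph receptors, the level was 598 ± 20.8 TPM in vehicle and 568 ± 28.1 TPM with Aβ42, and the groups overlapped.

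In the Slit and Robo family SLIT2 and ROBO2 passed as lower with the block, and the most abundant members, SLIT1 and ROBO1, did not pass. SLIT1, the main Slit in these organoids, measured 95.7, 89.4 and 88.3 TPM in vehicle and 109.8, 83.2 and 105 TPM with Aβ42, where replicate 2 was below all vehicle values. Its log2 fold change of 0.17 ± 0.10 did not pass (0.356 and 0.118), but without Aβ42 replicate 2 it was 0.28 with an adjusted p-value of 0.00234. SLIT2, a secreted repellent at a much lower level, was at 5.56, 9.80 and 5.84 TPM and 3.90, 5.94 and 3.43 TPM. Replicate 2 was the highest in both groups, and the groups overlapped. The adjusted p-value was 0.234 without and 0.000397 with the block, at a log2 fold change of -0.65 ± 0.29. Without vehicle replicate 2 that log2 fold change was -0.38.

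ROBO1, the most abundant Slit receptor here, stood at 130.2, 148 and 149 TPM and 135, 131 and 137 TPM, with overlap and a log2 fold change of -0.04 ± 0.06 (0.709 and 0.677). ROBO2 was lower in every Aβ42 library, at 76.6, 82.7 and 80.8 TPM in vehicle and 71.5, 69.3 and 64.7 TPM with Aβ42. The log2 fold change was -0.18 ± 0.05, with adjusted p-values of 0.0807 without and 0.0251 with the block, and leaving out single libraries kept it between -0.21 and -0.15. ROBO3, which lowers Slit sensitivity before commissural axons cross the midline, was at 9.09, 6.57 and 6.25 TPM and 9.73, 8.07 and 10.3 TPM (0.43 ± 0.19, 0.208 and 0.0966), with vehicle replicate 1 above Aβ42 replicate 2.

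The UNC5 receptors, which turn netrin signals into repulsion and act as dependence receptors, passed with the block in both directions, UNC5C and UNC5D as lower and UNC5B as higher. UNC5D, expressed in migrating cortical neurons and upper-layer precursors, measured 18.6, 25.6 and 20.9 TPM in vehicle and 9.48, 16.3 and 10.6 TPM with Aβ42. The groups did not overlap, and the log2 fold change of -0.79 ± 0.23 was the lowest of all tested members, with adjusted p-values of 0.126 without and 7.32e-06 with the block. UNC5C was lower too, at 3.40, 4.25 and 2.72 TPM and 2.06, 2.63 and 1.83 TPM (-0.63 ± 0.17, 0.0891 and 0.00172), with every Aβ42 value below every vehicle value. UNC5B (Entrez gene ID 219699, at chr10:71212570-71302864), a receptor also known from blood vessels and as a p53 target, was higher in every Aβ42 library. It measured 8.85, 6.28 and 7.29 TPM in vehicle and 11.9, 10.5 and 14.4 TPM with Aβ42, a log2 fold change of 0.71 ± 0.15 or 64.0% more, with adjusted p-values of 0.0734 and 0.000309. UNC5A, the most abundant of the 4, was at 35.04, 38.7 and 32.2 TPM and 33.5, 36.4 and 33.2 TPM, with overlap and a log2 fold change of 0.01 ± 0.07 (0.928) that turned to -0.03 on the log2(TPM + 1) scale, where the median over all genes tested was -0.04.

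DCC, the receptor for attraction to netrins, was at 25.8, 25.2 and 29.9 TPM in vehicle and 27.2, 27.3 and 21.9 TPM with Aβ42. Aβ42 replicate 3 was its lowest value, the groups overlapped, and the log2 fold change of -0.04 ± 0.09 (0.798 and 0.829) turned to 0.04 without that library. NTN1, the classical netrin, was low, at 3.92, 4.61 and 3.02 TPM and 3.43, 3.67 and 2.71 TPM (-0.14 ± 0.15, 0.591 and 0.479). NTN4, a laminin-binding netrin of basement membranes, passed with the block (0.0334, log2 fold change 0.39 ± 0.19), although its groups overlapped at 7.41, 5.71 and 7.78 TPM and 9.55, 6.63 and 10.3 TPM, with replicate 2 the lowest of each group. Its log2 fold change was 0.24 when Aβ42 replicate 3 was left out and 0.25 when vehicle replicate 2 was. The 10 tested genes of the netrin family had a median log2 fold change of -0.02, with 5 on each side of 0.

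In 17 of the 19 members of the blocked fit Aβ42 replicate 2 lay nearest to the vehicle mean among the 3 Aβ42 libraries, the exceptions being SEMA6D and ROBO2. The same held for 89.8% of all genes that passed with the block, so the 89.5% of these members was near that background, and the choice by the blocked fit bears on both shares. Among the 48 tested members that did not pass with the block it held for 25 (52.1%), and among all genes tested for 57.9%. For UNC5D the log2 ratio to the vehicle mean in CPM was -1.16, -0.38 and -0.96 in Aβ42 replicates 1 to 3, and for PLXNA4 it was -1.01, -0.39 and -0.78. Vehicle replicate 2 was the highest vehicle library in all of the 15 lower members except SEMA6D, EPHB2 and EFNB2, at 0.23 for UNC5D and 0.43 for SLIT2. Limma's sample quality weight was 0.395 for Aβ42 replicate 2, against 1 to 1.63 for the other libraries.

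**Figure D4:**
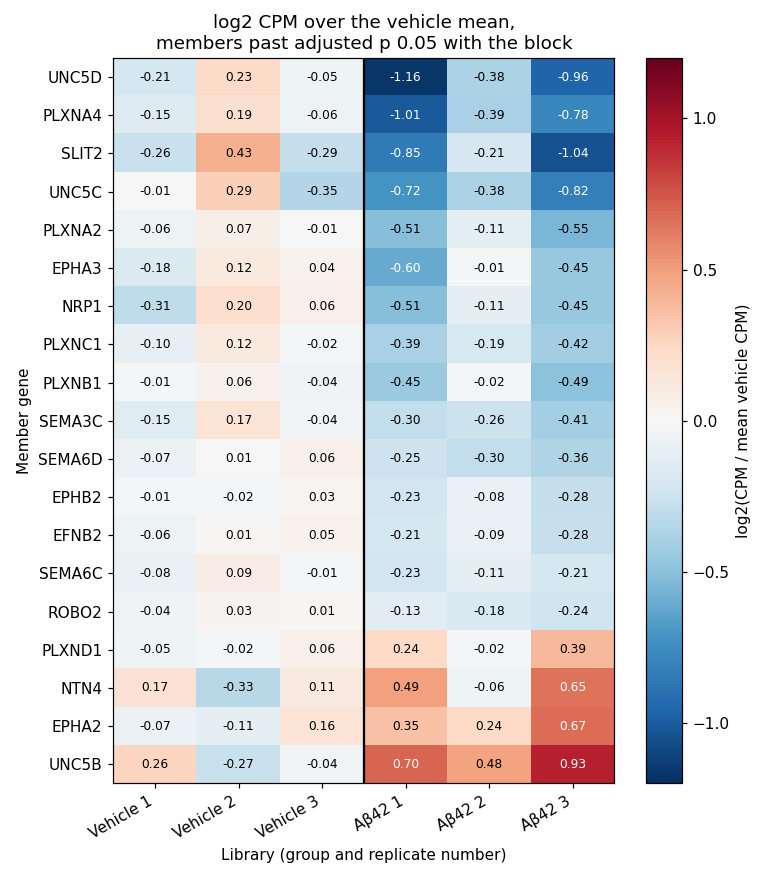
Log2 ratio of CPM to the mean of the 3 vehicle libraries for the 19 members that passed with the replicate block, with blue for lower and red for higher values. Aβ42 replicates 1 and 3 carry the deepest colours, down to -1.16 for UNC5D and up to 0.93 for UNC5B, and Aβ42 replicate 2 is the Aβ42 library nearest to 0 in 17 of 19 rows.

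Summed by role, ligands and receptors were both lower with Aβ42. The 37 ligands summed to 1315, 1376 and 1336 TPM in vehicle and 1268, 1241 and 1222 TPM with Aβ42, and the 34 receptors to 1467, 1601 and 1551 TPM and 1335, 1448 and 1317 TPM. In both sums every Aβ42 library lay below every vehicle library, by 7.33% and 11.2% of the vehicle mean. Semaphorins summed to 729 ± 25.6 TPM and 657 ± 15.8 TPM, also without overlap. On the log2(TPM + 1) scale the median over all genes tested was -0.04. In CPM scaled by the TMM method, the ligands changed by -5.52% and the receptors by -13.3%. The plexins, semaphorins and ephrins changed by -22.6%, -8.62% and -7.03% in CPM. None of these CPM sums overlapped between the groups. The sums of the Slits, Robos, netrins, netrin receptors and Eph receptors overlapped between the groups. These sums follow their most abundant genes and were not tested.

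Other genes of the pathway were counted in 2 lists. Of 36 further guidance ligands, receptors and adhesion molecules, all tested, 0 passed in either direction without the block (4 higher and 6 lower had unadjusted p-values under 0.05), and 4 passed as higher and 5 as lower with it, at a median log2 fold change of 0.01. With the block these are 11.1% and 13.9% of the list, against 7.12% and 7.05% of all genes, and before adjustment 11.1% and 16.7%, against 12.4% and 11.5%. CXCL12, a chemokine that attracts migrating neurons, was the lowest, from 12.02 ± 2.04 to 6.46 ± 1.08 CPM with a log2 fold change of -0.89 ± 0.16 (adjusted p-values 0.0684 without and 0.000397 with the block). DSCAM, a netrin and homophilic receptor, was lower as well, from 56.95 ± 0.143 to 46.6 ± 4.21 CPM (-0.29 ± 0.07, 0.0734 and 0.00829). PTPRF and CDON, a receptor phosphatase and a co-receptor for hedgehog signals, were higher, with log2 fold changes of 0.17 ± 0.06 (0.131 and 0.0329) and 0.18 ± 0.07 (0.154 and 0.0289).

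Of 58 genes of intracellular guidance signalling, 57 were tested and 0 passed without the block (2 higher and 15 lower had unadjusted p-values under 0.05). These are 3.51% and 26.3% of the list, against 12.4% and 11.5% of all genes. With the block 1 passed as higher and 8 as lower, or 1.75% and 14% against 7.12% and 7.05%, and the median log2 fold change was -0.05, with 36 lower and 21 higher. MARCKS, a membrane and actin-binding substrate of protein kinase C, went from 467 ± 29.95 to 378 ± 43.7 CPM (-0.31 ± 0.08, 0.0856 and 0.000941). SRGAP1, which acts below Robos on CDC42, went from 198 ± 6.78 to 176 ± 1.94 CPM (-0.17 ± 0.05, 0.0852 and 0.0361). On the other side, NGEF, the ephexin that links EPHA4 to RhoA, had a log2 fold change of 0.30 ± 0.13 (0.205 and 0.0205) and VASP, an actin regulator, one of 0.23 ± 0.09 (0.168 and 0.127).

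Summed markers of intermediate progenitors, dividing cells and neurons were also lower with Aβ42. Intermediate progenitor markers (6 genes) summed to 259, 284 and 260.3 TPM in vehicle and 190, 213 and 174 TPM with Aβ42, with 5 of 6 genes lower and no overlap of the sums. Markers of dividing cells (6 genes) summed to 301, 357 and 315 TPM and 202, 267 and 192 TPM, with 6 of 6 lower, and in this list too Aβ42 replicate 2 was nearest to vehicle. Pan-neuronal markers (7 genes) summed to 4317 ± 133 TPM and 3999.6 ± 102 TPM, also without overlap, with 4 lower and 3 higher. Sums for radial glia (8491 ± 192 and 8660.1 ± 173 TPM), dorsal forebrain excitatory neurons (1466 ± 32.2 and 1386 ± 42.9 TPM), interneurons (9.63 to 23.6 and 19.6 to 27.4 TPM), Cajal-Retzius cells (20.5 ± 1.96 and 17.8 ± 1.49 TPM), astrocytes (90.2 ± 17.5 and 60.7 ± 15.7 TPM) and the choroid plexus overlapped. So did those for the oligodendrocyte lineage (4.04 ± 0.605 and 3.06 ± 0.331 TPM), endothelium (4.87 ± 2.14 and 2.97 ± 0.872 TPM), microglia (0.53 ± 0.148 and 0.69 ± 0.481 TPM) and mesenchyme (23.1 ± 8.23 and 15.7 ± 2.48 TPM). The part of these cell types in the differences of the members was not tested.

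Gene length also moved with fold change. Over all genes tested, the median log2 fold change was 0.06 in the shortest of 10 equal groups of genes by length and -0.04 in the longest, and 17 and 14 of the 67 tested members lay in the 2 longest groups. With the block and offsets for length and GC content, 15 members were lower and 4 higher, against 7.84% and 8.9% of all genes (16.7% in all). Among the higher members of that fit, EPHA5 (adjusted p-value 0.0371) took the place of PLXND1 (0.0872).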

How the data were processed

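Poly(A) RNA from 6 libraries was measured. The authors deposited a table of estimated counts and of TPM per gene. The submitters' processing notes name FastQC, STAR 2.7.11b, featureCounts 2.0.6 and GRCh38, without roles or order, and the annotation is not given in the sources used here. Between 86.9% and 87.5% of the deposited counts per library were whole (tolerance 1e-06), so they were treated as estimated counts and rounded. TPM as deposited served for levels.

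Counts were fitted with edgeR 4.0.16 in R 4.3.3 (filterByExpr, TMM, robust quasi-likelihood test, Benjamini-Hochberg over 13842 genes, threshold 0.05), without a block. The error after a log2 fold change is its standard error, the size of the change over the square root of F. Alternatives used limma 3.58.1 and DESeq2 1.42.0. The biological coefficient of variation was 6.75%. Scripts were tested on simulated data. The limit given for a count of 0 covers counting error only, while standard errors and SDs also hold variation between libraries.

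Values per library were given for the 2 most abundant members and the 2 with the smallest p-values of each family, up to 12 members past the threshold with the block, and DCC, ROBO1, SLIT2, NTN1, SEMA3A, NRP1 and EPHA4. From each pathway list the 2 higher and 2 lower genes with the smallest p-values were named, and further members were named after their values were seen. Members and lists were chosen with earlier results of these data known.

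The libraries numbered 2 deviated together from their group means (correlation of 0.411 across 12187 genes), and the values for numbers 1 and 3 were 0.198 and 0.133. The labels do not say that a number marks a shared culture, so the pairing comes from the data alone. Numbers 1 and 3 are not told apart by it (0.208 for vehicle 3 with Aβ42 1, 0.157 for vehicle 1 with Aβ42 3). Deviations from a group mean cancel over its libraries, so the values for numbers 1 and 3 follow in part from number 2. No 2 of the 6 libraries agreed within sampling noise (chi-square per gene 3.16 to 21.2 over all pairs, within and across groups).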

Additional observations from a re-analysis of the deposited data

How the results depend on the processing

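The number of members past the threshold moved with the replicate block and with Aβ42 replicate 2, and the cause was not tested. Leaving out both libraries of a number, and the offsets for length and GC content, were added after seeing the data. Members past an adjusted p-value of 0.05, 0 higher and 0 lower, became 4 and 15 with the replicate block, 1 and 8 in DESeq2 and 4 and 17 with limma quality weights. They became 2 and 7 at a threshold of 0.1, 9 and 15 without both libraries numbered 2 (16.9% of all genes called), and 4 and 15 with the block and length and GC offsets, and 2 were lower with no filter (2.07% of all genes). With the block and without number 1, 2 or 3 they were 1 and 4, 8 and 15, and 1 and 8. Leaving out Aβ42 replicate 2 gave 11 higher and 15 lower, and leaving out any other single library gave 0 and 0. In limma without quality weights, under RLE and upper-quartile scaling, and at a mean of at least 10 counts they stayed at 0 and 0. So they did on both TPM scales and with offsets but no block. In each of these settings 0% of all genes were called. The 6 members higher at an unadjusted p-value under 0.05 became 13 with the block, 16 with quality weights, 15 without both numbered 2, 10 and 15 with the block and without number 1 or 2, 11 with the block and offsets, and 3 to 18 without single libraries. The 12 lower became 19 on both TPM scales. The median log2 fold change over all genes was also lower there, at -0.0401 on log2(TPM + 1) and -0.0434 on log2(TPM + 0.1), against 0.0032 in the main fit. Shares of all genes at unadjusted p-values were counted in the main fit alone, so these changes have no background beside them.

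Pathway genes past the threshold (0 and 0) became 5 higher and 13 lower with the block, 4 and 16 with quality weights, 4 and 12 without both numbered 2, 4 and 11 with the block and without number 2, 5 and 14 with the block and offsets, and 10 and 18 without Aβ42 replicate 2. Leaving out any other single library gave 0 and 0. These counts are over lists of 36 and 57 tested genes. In the same order, the settings called 14.2%, 17.8%, 16.9%, 15.1%, 16.7%, 23.3% and 0% of all genes in either direction. For lower pathway genes alone, the count was 2 with no filter, 7 in DESeq2, and 1 and 4 with the block and without number 1 or 3. Those settings called 2.07%, 7.12%, 0.824% and 3.58% of the genes with an adjusted p-value in either direction, which were 11426 genes in DESeq2. The members' median of 0.0124 was -0.0161 on log2(TPM + 1), -0.0164 on log2(TPM + 0.1), -0.00923 with the block and without number 3, and -0.0181 to 0.0303 without single libraries. On the TPM scales the median over all genes was -0.0401 and -0.0434, against 0.0032 in the main fit, so the members' median stayed above that of all genes.

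Among the genes named by rule, the sign turned for 5 near 0, and over all 67 tested members leaving out 1 library turned it for 12. DCC was at 0.13 with the block and without number 3, 0.0121 with offsets, 0.0134 with block and offsets, and -0.0971 to 0.0430 without single libraries. EPHA4 was at 0.0107 with the block and without number 3 and at 0.000499 with block and offsets. ROBO1 was at 0.0100 without both numbered 2 and at 0.0123 with the block there. SEMA6B was at -0.0111 and -0.0112 on the TPM scales, -0.00923 with the block and without number 3, -0.0545 with offsets, -0.0548 with block and offsets, and -0.0113 to 0.0607 without single libraries. UNC5A was at -0.0345 and -0.0353 on the TPM scales, -0.0333 with the block and without number 3, -0.0460 with offsets, -0.0447 with block and offsets, and -0.0473 to 0.0701 without single libraries. The median over all genes on the TPM scales was -0.0401 and -0.0434. Of 880 values for single genes and settings, 690 kept direction and side of the threshold, 166 passed newly and 24 turned.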
